A study of Mus musculus with 9 samples.

Results

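Transcripts of 9 rod photoreceptor genes, *Sag*, *Gnat1*, *Pde6b*, *Pde6g*, *Rcvrn*, *Pdc*, *Gngt1*, *Prph2* and *Cnga1*, were followed in RNA from purified mouse retinal ganglion cells (RGCs). The 9 were chosen by name, after their levels and group differences in these libraries had been seen, so their values are given here as a description and without a test. They are 9 of the 23997 gene symbols in the expression tables. All mice were C57BL/6J, aged 8 weeks at collection, and had 1 eye injected in the anterior chamber at 6 weeks of age. Control eyes received saline. Mild IOP and Moderate IOP eyes received polystyrene microbeads, which raise intraocular pressure (IOP), and were sorted into those groups by the size of the pressure rise over 2 weeks. RGCs were then isolated by immunopanning, in which plates carrying a lectin, CD11b/c antibody and VC1.1 antibody first removed other cells and a plate carrying Thy1.2 antibody held the RGCs. The removal plates were aimed at microglia, macrophages, endothelial cells, fibroblasts and amacrine cells, and none of them was aimed at photoreceptors. Every group is 1 pool of RNA, divided into 3 libraries, so the spread between libraries is technical and does not include variation between animals. The Moderate IOP pool was made from fewer retinas than the Control and Mild IOP pools.

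Rods are the photoreceptors of dim light and the most numerous neurons of the mouse retina, and they hold their light-sensing proteins in stacked membrane discs. Light leads to activation of the G protein transducin, and transducin relieves the inhibition of a phosphodiesterase that breaks down cyclic GMP. The fall in cyclic GMP closes a cation channel, and a further group of proteins, arrestin among them, ends the response. RGCs, the output neurons of the retina, do not use this cascade, so its transcripts in an RGC preparation are commonly read as those of rods. In such bulk samples, fewer cells of a type and less RNA per cell cannot be told apart.

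The homeodomain factor CRX and the leucine zipper factor NRL drive rod genes, and their short core motifs were looked for in RefSeq promoters on GRCm38.p6, the assembly called mm10, from 250 bases before to 50 bases after the start site. Promoters were matched for 6 of the 9 genes, *Sag*, *Pde6b*, *Pdc*, *Gngt1*, *Prph2* and *Cnga1*, and not for *Gnat1*, *Pde6g* and *Rcvrn*. The motifs were TAATCC for CRX and TGCTGA for NRL, read on both strands, and no match of one overlapped a match of the other. Any bearing of the motifs on the group differences was not tested. The 4 promoters with a match are shown 5′ to 3′ on the gene's own strand, with the matches in capitals (a reverse-strand TAATCC reads GGATTA).
*Sag*, chr1:87803430-87803729, plus strand: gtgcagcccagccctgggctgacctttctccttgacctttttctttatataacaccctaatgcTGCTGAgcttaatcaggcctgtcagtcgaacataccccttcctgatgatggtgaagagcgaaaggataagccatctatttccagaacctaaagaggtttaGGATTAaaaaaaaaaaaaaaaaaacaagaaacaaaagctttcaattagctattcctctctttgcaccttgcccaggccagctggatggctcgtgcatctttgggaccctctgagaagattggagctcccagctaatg
*Pde6b*, chr5:108388123-108388422, plus strand: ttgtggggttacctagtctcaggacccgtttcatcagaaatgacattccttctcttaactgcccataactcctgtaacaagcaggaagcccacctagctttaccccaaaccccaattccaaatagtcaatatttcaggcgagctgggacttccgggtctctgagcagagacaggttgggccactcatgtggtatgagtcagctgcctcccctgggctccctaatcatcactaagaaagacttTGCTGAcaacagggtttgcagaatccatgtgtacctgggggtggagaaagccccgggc
*Gngt1*, chr6:3993758-3994057, plus strand: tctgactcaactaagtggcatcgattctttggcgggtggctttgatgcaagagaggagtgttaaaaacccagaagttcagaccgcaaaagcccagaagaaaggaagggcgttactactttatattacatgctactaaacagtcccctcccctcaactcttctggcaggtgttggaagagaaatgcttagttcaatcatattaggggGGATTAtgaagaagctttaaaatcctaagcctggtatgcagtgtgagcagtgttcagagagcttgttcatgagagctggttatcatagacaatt
*Cnga1*, chr5:72642703-72643002, minus strand: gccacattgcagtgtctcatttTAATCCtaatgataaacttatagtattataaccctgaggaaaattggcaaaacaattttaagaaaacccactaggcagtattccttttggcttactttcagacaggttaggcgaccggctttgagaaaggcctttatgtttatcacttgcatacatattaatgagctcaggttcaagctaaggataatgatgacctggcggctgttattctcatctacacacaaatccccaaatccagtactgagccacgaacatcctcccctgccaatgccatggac

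The CRX letters lay at −87 from the start site of *Sag*, at −44 in *Gngt1* and at −228 in *Cnga1*, counting from the first base of the match. The NRL letters lay at −187 in *Sag* and at −8 in *Pde6b*. TAATCC was thus held by 3 of the 6 promoters, against 7.06% of all 32851 RefSeq promoters of this length, and TGCTGA by 2 of the 6, against 19.5%. *Sag* held both, as did 1.36% of all promoters. The windows of *Pdc* and *Prph2* held neither set of letters. A match is a description of the letters and not a binding site. Among 33 further rod genes with a promoter in the same table, 14 held TAATCC and 12 held TGCTGA.

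The libraries were sequenced as read pairs on an Illumina HiSeq instrument and deposited as FPKM, fragments per unit of transcript length and of sequencing depth, which allows levels of different genes to be compared. Here FPKM was divided by a library scaling factor between 0.983 and 1.058, and the result is called scaled FPKM. The depth derived from the confidence intervals in the tables lay between 4820000 and 8710000 fragments, and 14182 to 14914 genes stood above 0. A single microRNA gene, *Mir1249*, held 20.5% of the summed FPKM of Mild IOP library 2, and *Mir8104* held 9.14% in Moderate IOP library 3, whereas no gene held more than 3.59% in any other library. The RGC markers *Sncg*, a synuclein, and *Nefl*, a neurofilament subunit, stood at 911 ± 49.6 and 343 ± 9.41 scaled FPKM in Control (mean ± SD, n = 3, as below).

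The 9 rod genes stood below *Sncg* and *Nefl*, the most abundant RGC markers listed, and were readily detected. Less abundant RGC markers were not compared with them gene by gene. In Control the 9 RGC markers summed to 1484 ± 43.8 scaled FPKM, most of it from *Sncg* (911 ± 49.6) and *Nefl* (343 ± 9.41). What the less abundant RGC markers added to that sum was below the sum of the 9 rod genes, 665 ± 39.2. In Control, *Sag* was the highest at 163 ± 14.7 scaled FPKM, rank 648 of 23995 genes, followed by *Gnat1*, *Pde6g*, *Gngt1*, *Pdc*, *Prph2*, *Pde6b* and *Rcvrn*. *Cnga1* was the lowest at 9.34 ± 4.41 and rank 6236. Neighbours in that order were often not separated by their spread, as with *Sag* and *Gnat1* (147 ± 21.3) or *Gngt1* (67.4 ± 23.3) and *Pdc* (62.1 ± 10.1). The number of fragments behind a single value ran from 684 to 2397 for *Sag* and from 862 to 2994 for *Gnat1*, but only from 43.4 to 206 for *Rcvrn* and from 45.8 to 196 for *Cnga1*. Transcription factors of rods, of which CRX also serves cones, were also present at low levels in Control, with *Crx* at 8.61 ± 1.22, *Nr2e3* at 10.4 ± 3.14 and *Nrl* at 3.43 ± 1.89 scaled FPKM.

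**Figure D1:**
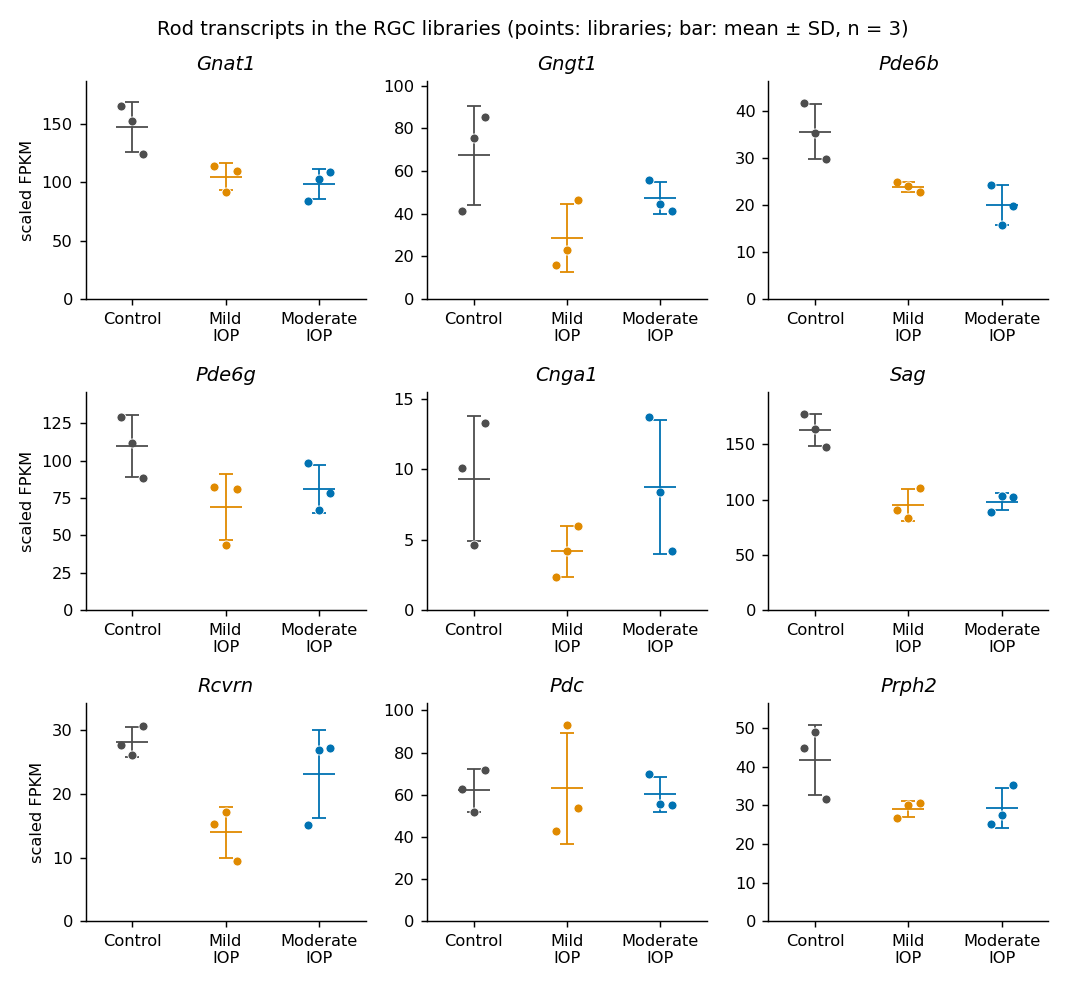
Scaled FPKM (vertical axes, from 0) of the 9 rod genes in the 3 libraries of each group (points), with the group mean and SD as bars. *Sag*, *Gnat1* and *Pde6b* sit below every Control library in both IOP groups, whereas *Pdc* has nearly the same mean in the 3 groups and *Cnga1* and *Gngt1* scatter widely.

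Transducin is the G protein of rods. *Gnat1*, its alpha subunit (chr9:107674474-107679592, minus strand, in mm10 as for all positions below, each of a protein-coding gene), stood at 165, 153 and 124 scaled FPKM in the Control libraries, at 114, 91.9 and 109 in Mild and 84.4, 103 and 109 in Moderate IOP. Every IOP library was below every Control library, and the IOP groups overlapped each other. The log2 fold-change against Control was −0.48 in Mild and −0.57 in Moderate IOP (SE 0.15), on the log2 scale of scaled FPKM plus 1 used for all fold-changes. *Gngt1*, its gamma subunit (chr6:3994012-3997436, plus strand), stood at 41.1, 75.5 and 85.5 in Control, at 16.1, 23.2 and 46.3 in Mild and 55.8, 44.7 and 41.3 in Moderate IOP. *Gngt1* had the lowest fold-change of the 9 in Mild IOP, −1.28 (SE 0.35), but Mild library 3 was above the lowest Control library and the groups overlapped. In Moderate IOP its fold-change was −0.45, with overlap as well, and ran from −0.76 without Control library 1 to −0.25 without Control library 3.

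The rod phosphodiesterase has catalytic alpha and beta subunits and an inhibitory gamma subunit. *Pde6b*, the beta subunit (chr5:108388373-108431742, plus strand), stood at 41.7, 35.4 and 29.9 scaled FPKM in Control, at 24.9, 24.1 and 22.9 in Mild and 24.4, 15.8 and 19.9 in Moderate IOP. All 6 IOP libraries were below all Control libraries, and the fold-changes were −0.54 in Mild and −0.81 in Moderate IOP (SE 0.18). *Pde6g*, the inhibitory subunit (chr11:120447610-120453483, minus strand), stood at 130, 112 and 88.4 in Control, at 82.3, 43.8 and 81.3 in Mild and 98.4, 66.8 and 78.7 in Moderate IOP. Mild IOP lay below Control with a small gap, and 1 Moderate library lay above the lowest Control library. The *Pde6g* fold-changes were −0.70 and −0.43 (SE 0.25), the former −0.41 without Mild library 2.

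*Cnga1* encodes the alpha subunit of the cyclic GMP-gated channel (chr5:72603697-72642752, minus strand), the last step of the cascade. Its values were 10.1, 4.60 and 13.3 scaled FPKM in the Control libraries, 2.36, 4.20 and 5.98 in Mild and 13.7, 8.36 and 4.21 in Moderate IOP. Both IOP groups overlapped Control. The fold-changes were −0.96 in Mild and −0.11 in Moderate IOP, each with an SE of 0.44, the largest SE of the 9 genes. Leaving out single libraries took the Moderate value from −0.50 (without Control library 2) to 0.29 (without Moderate library 3).

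The response is shut off and adjusted by arrestin, recoverin and phosducin. *Sag*, the rod arrestin (chr1:87803680-87845157, plus strand), stood at 177, 164 and 148 scaled FPKM in Control, at 90.8, 83.4 and 111 in Mild and 89.1, 103 and 102 in Moderate IOP. The Control and IOP values were widely separated, and the group means in Mild and Moderate IOP were 58.2% and 60.2% of the Control mean. The fold-changes of *Sag* were −0.78 and −0.73 (SE 0.14), the smallest SE of the 9. *Rcvrn*, a calcium sensor that restrains a receptor kinase (chr11:67695326-67703355, plus strand), stood at 27.7, 26.1 and 30.6 in Control, at 15.3, 17.2 and 9.41 in Mild and 15.1, 26.9 and 27.2 in Moderate IOP. It was lower in all Mild libraries, with a mean of 49.7% of Control, whereas in Moderate IOP only library 1 stood clearly below Control and the mean was 82.1%. The fold-changes of *Rcvrn* were −1.0 and −0.32 (SE 0.26), the latter −0.45 without Moderate library 3 and −0.05 without Moderate library 1.

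*Pdc* encodes phosducin, which binds the beta and gamma subunits of transducin (chr1:150319417-150333906, plus strand). It was the member whose group means lay closest together, at 62.1 ± 10.1 scaled FPKM in Control, 63.1 ± 26.4 in Mild and 60.3 ± 8.35 in Moderate IOP. The single values were 62.9, 51.7 and 71.8 in Control, 42.8, 92.9 and 53.5 in Mild and 69.9, 55.7 and 55.3 in Moderate IOP. The highest of them was in Mild library 2, where *Mir1249* held 20.5% of the summed FPKM, and the groups overlapped throughout. Any link of the *Pdc* value to *Mir1249* was not tested. The fold-changes of *Pdc*, taken from mean log values, were both −0.04 (SE 0.25), although its Mild mean was the higher one. *Prph2*, a tetraspanin of the disc rim (chr17:46910485-46924926, plus strand), stood at 44.8, 48.9 and 31.6 in Control, at 26.7, 30.0 and 30.6 in Mild and 25.1, 27.6 and 35.2 in Moderate IOP. Mild IOP lay just below the lowest Control library and Moderate IOP overlapped it. The fold-changes of *Prph2* were −0.48 and −0.49 (SE 0.19).

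Across the 9 genes, the median log2 fold-change against Control was −0.70 in Mild and −0.45 in Moderate IOP, beside medians of 0.01 and 0.00 over the 13043 genes tested. All 9 passed the filter on low values (0.5 or more scaled FPKM on average over all libraries), and all 9 fold-changes were below 0 in both comparisons, against 49.0% and 49.5% of all genes. Every Mild library was below every Control library for 6 of the 9 genes, *Sag*, *Gnat1*, *Pde6b*, *Pde6g*, *Rcvrn* and *Prph2*, as it was for 9.13% of all genes. In Moderate IOP this held for 3 of the 9, *Sag*, *Gnat1* and *Pde6b*, and for 9.48% of all genes. The value of *Pdc* lay so close to 0 that it became positive in 4 of the 18 alternative settings in Mild IOP and in 3 of 18 in Moderate IOP, and that of *Cnga1* in Moderate IOP became positive in 2 of 18. Since the 9 were chosen with these differences in view, nothing is read from the counts. Both comparisons share the Control libraries. Without Mild library 2, where *Mir1249* held 20.5% of the summed FPKM, the Mild median was −0.55 with 9 of 9 below 0. Without Moderate library 3, the Moderate median was −0.45 with 7 of 9 below 0.

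Between Moderate IOP and Mild IOP all 9 members overlapped, where 13.0% of all genes were wholly lower and 14.5% wholly higher. Of the 9, 3 had a fold-change below 0, against 51.5% of all genes, and the median was 0.05. The widest differences were those of *Cnga1* (0.85, SE 0.44), *Gngt1* (0.83, SE 0.35) and *Rcvrn* (0.68, SE 0.26), which were higher in Moderate IOP, followed by *Pde6g* (0.27, SE 0.25), which was also higher, and *Pde6b* (−0.27, SE 0.18), which was lower. *Sag* (0.05), *Pdc* (0.00) and *Gnat1* (−0.09) were close to 0. Leaving out single libraries moved *Sag*, *Gnat1*, *Pdc*, *Pde6g* and *Prph2* across 0 in this comparison.

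**Figure D2:**
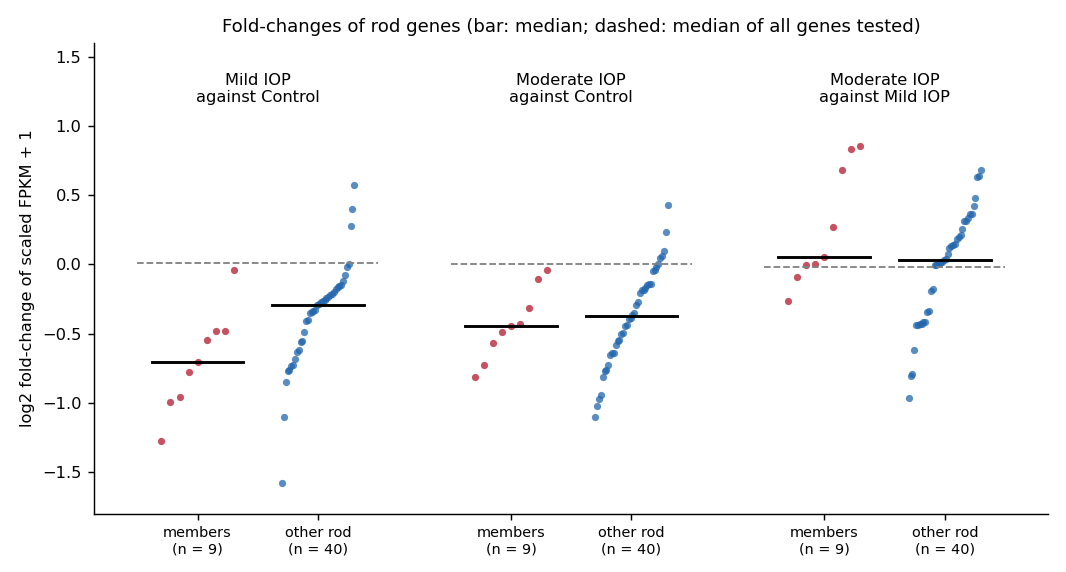
Log2 fold-change of scaled FPKM plus 1 (vertical axis) for the 9 members (red) and the 40 other rod genes tested (blue) in each comparison, 1 point per gene, sorted by value, with the median as a black bar and the median of all 13043 genes tested as a dashed line. Against Control the medians of both lists lie below the dashed line (−0.70 and −0.29 in Mild IOP, −0.45 and −0.38 in Moderate IOP), and between the IOP groups they lie near it (0.05 and 0.03).

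The libraries of 1 pool differed by more than counting would give. The coefficient of variation between libraries exceeded that of the fragment counts in 26 of 27 combinations of gene and group, and was over 2 times as large in 24 of them. The median coefficient over groups was 9.01% for *Sag* and 12.9% for *Gnat1*, and it reached 34.6% for *Gngt1* and 47.2% for *Cnga1*. The 2 most abundant members were also the most even.

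Summed over the 9 genes, the rod signal was 700.5, 671 and 623 scaled FPKM in the Control libraries, 415, 411 and 470 in Mild and 476, 452 and 473 in Moderate IOP. Both IOP groups lay wholly below Control, at 65.0% and 70.2% of its mean, and overlapped each other. *Sag* and *Gnat1* make up much of this sum. Without them it was 354 ± 3.33 in Control, 232 ± 20.0 in Mild (65.4%) and 270 ± 29.3 in Moderate IOP (76.2%).

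Most shares of the rod signal overlapped between the groups. *Sag* made up 24.5 ± 0.782% of the sum in Control, 21.9 ± 1.64% in Mild and 21.1 ± 2.11% in Moderate IOP. Every IOP library was below every Control library, the closest by a narrow margin (23.59 against 23.77%). The share of *Pdc* was 9.40 ± 1.95% in Control, 14.8 ± 6.82% in Mild and 12.9 ± 1.58% in Moderate IOP. In Moderate IOP it lay wholly but narrowly above Control (11.69 against 11.52%). The shares of the other 7 genes overlapped between all groups, among them *Gnat1* at 22.1 ± 1.96%, 24.3 ± 2.67% and 21.2 ± 2.98%. The ratio of *Sag* to *Gnat1* was 1.07, 1.07 and 1.20 in Control, 0.800, 0.908 and 1.02 in Mild and 1.06, 1.00 and 0.940 in Moderate IOP. All 6 IOP libraries had a lower ratio than the 3 Control libraries, the closest by little (1.056 against 1.073). How often other genes separate in this way was not computed, so nothing is read from these shares and ratios.

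**Figure D3:**
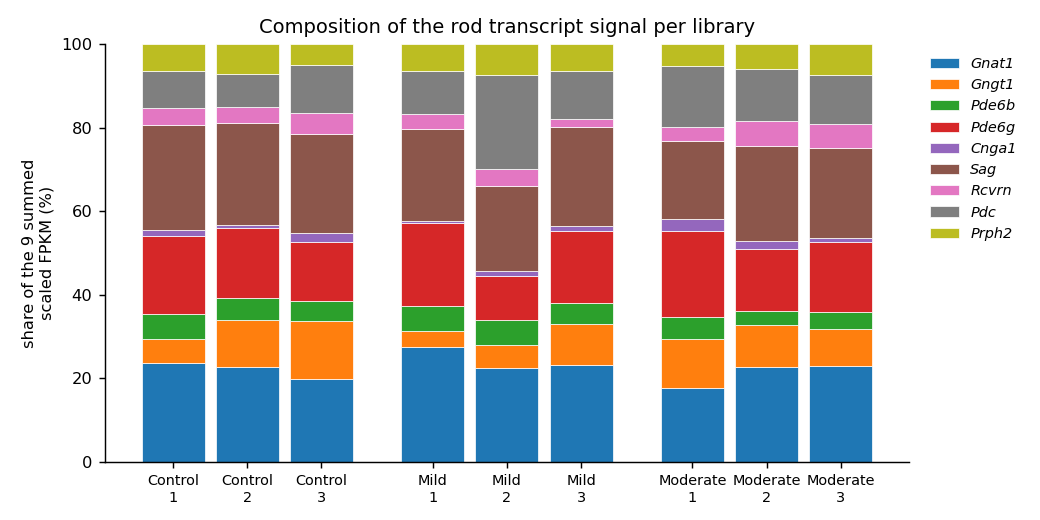
Share of each of the 9 rod genes in their summed scaled FPKM (vertical axis, percent), stacked, in each of the 9 libraries. *Gnat1*, *Sag* and *Pde6g* make up most of every bar, and *Pdc* is widest in Mild IOP library 2.

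Further rod genes were also examined, and since their list was set with earlier results of these libraries known, it is no independent check of the 9. A list of 44 further genes of the cascade, the outer segment, the retinoid cycle, rod transcription, trafficking and the rod synapse was used, of which 40 passed the filter and *Gucy2f*, *Samd7*, *Impg2* and *Rdh8* did not. In Mild IOP 37 of the 40 (92.5%) had a fold-change below 0, against 49.0% of all genes, with a median of −0.29. In Moderate IOP 34 did (85.0%), against 49.5%, with a median of −0.38. Among the 20 of the 40 with a mean of at least 5 scaled FPKM, the medians were −0.38 in Mild and −0.19 in Moderate IOP. None passed a limma FDR of 0.1 against Control in either comparison, where 0.399% and 1.84% of all genes did. At an unadjusted P-value below 0.05, 7 of the 40 were lower and 1 higher in Mild IOP, where 7.0% of all genes were lower and 3.15% higher. In Moderate IOP 9 were lower and 0 higher, where 7.26% and 8.03% of all genes were. Summed over the list, the level was 591 ± 15.7 scaled FPKM in Control, 436 ± 31.5 in Mild (73.7%) and 475 ± 22.1 in Moderate IOP (80.3%), and neither IOP group overlapped Control.

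By role, only the genes tested were counted. In Mild IOP all 9 signalling, all 6 transcription and all 12 trafficking and synapse genes had a fold-change below 0. So did 9 of 11 outer segment genes and 1 of 2 retinoid cycle genes, against 49.0% of all genes. Some of these values were close to 0, with 1 signalling gene at −0.0001. In Moderate IOP these counts were 7 of 9, 5 of 6, 10 of 12, 10 of 11 and 2 of 2, against 49.5% of all genes. Several of these genes also serve cones. Among the most abundant, *Guca1a*, a calcium-dependent activator of the guanylate cyclase that restores cyclic GMP, stood at 43.0 ± 8.22 scaled FPKM in Control, 19.4 ± 3.42 in Mild and 25.9 ± 10.9 in Moderate IOP (log2 fold-changes −1.10 and −0.77, SE 0.26, limma FDR 0.16 and 0.20). *Guca1b*, of the same family, stood at 32.9 ± 6.15, 21.0 ± 3.48 and 21.7 ± 4.06, and its IOP libraries lay below all Control libraries (limma FDR 0.28 and 0.21). *Unc119*, a lipid-binding trafficking protein that other cells also express, stood at 173 ± 21.5, 122 ± 9.59 and 152 ± 7.98 (limma FDR 0.20 and 0.52). *Rom1*, the partner of *Prph2* at the disc rim, stood at 77.3 ± 7.78, 61.2 ± 13.1 and 67.3 ± 10.7, and *Reep6*, a membrane-shaping protein of rods, at 28.2 ± 4.83, 23.0 ± 2.73 and 25.5 ± 4.76. The lowest FDR against Control belonged to *Susd3*, named after its values were seen, at 10.6 ± 1.68, 2.96 ± 1.09 and 5.43 ± 3.02 (Mild IOP log2 fold-change −1.58, SE 0.32, limma FDR 0.103).

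*Prom1* differed from most of the list. It encodes a pentaspan membrane protein of the disc margins that other cells also express. Its values were 19.4, 17.1 and 18.7 scaled FPKM in Control, 29.3, 24.6 and 29.8 in Mild and 14.3, 17.1 and 10.6 in Moderate IOP, so that Mild IOP was above all Control libraries and Moderate IOP below them, the latter by a narrow margin (17.06 against 17.12). The differences from Control were 0.57 and −0.40 on the log2 scale (SE 0.18) and did not pass (limma FDR 0.28 and 0.33). The difference of Moderate IOP from Mild IOP, −0.97 (SE 0.18), passed at a limma FDR of 0.0150. It was the only 1 of the 40 to pass in that comparison, in which 3.12% of all genes were called lower and 10.2% in either direction, so that 1 in 40 is no more than the share of all genes. In the GENCODE M21 annotation 385 exonic bases of *Prom1* are shared with *Gm16401* on the opposite strand, whose reads cannot be told apart from its own without strand. No member shares exonic bases with another gene there.

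Cones, the photoreceptors of bright light, use counterparts of several of these genes, and the counterparts compared stood far lower. No cone counterpart was compared for *Rcvrn*, *Pdc* and *Prph2*. In Control, *Sag* was 178 times the level of its cone counterpart *Arr3* (0.914 ± 0.0898 scaled FPKM), *Gnat1* was 246 times *Gnat2* (0.599 ± 0.346) and *Pde6b* was 217 times *Pde6c* (0.165 ± 0.172). *Pde6g* was 29.9 times *Pde6h* (3.68 ± 3.21) and *Gngt1* was 16.9 times *Gngt2* (3.98 ± 0.626), and *Cnga3* was listed at 0 in all 9 libraries. *Pde6c* was at 0 in 4 of the 9 libraries, *Arr3* and *Pde6h* in 2 each, and *Gnat2* and *Gngt2* in 1 each. No value of these counterparts had more than 29.0 fragments behind it, so the ratios are rough. Of 10 cone genes, 8 were tested and none passed a limma FDR of 0.1 or an unadjusted P-value of 0.05 against Control. Their summed level ran from 33.4 to 36.8 in Control, from 40.3 to 52.6 in Mild IOP and from 37.2 to 54.8 in Moderate IOP, most of it from *Gnb3* (20.1 ± 0.858 in Control), a G protein subunit that bipolar cells also express. The cone sum was thus higher than Control in both IOP groups, where the rod sum was lower.

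Markers of other retinal cells ordered the groups in other ways. The 9 RGC markers summed to 1437 to 1523 scaled FPKM in Control, 1054 to 1301 in Mild and 2272 to 2424 in Moderate IOP. Most of this was *Sncg*, at 911 ± 49.6, 641 ± 117 and 1389 ± 34.0. *Nefl* was higher than Control in both IOP groups, at 343 ± 9.41, 374 ± 10.1 and 537 ± 18.2. Of the 9, 7 had a fold-change below 0 in Mild IOP (median −0.19) and 2 in Moderate IOP (median 0.61). The 10 amacrine markers summed to 1413 to 1467, 1480 to 1659 and 1052 to 1193. Among them *Gad1*, the GABA-making enzyme of amacrine cells, stood at 549 ± 23.6, 587 ± 27.5 and 421 ± 21.5. The list was mixed, as 5 of 9 amacrine markers tested had a fold-change above 0 in Moderate IOP (median 0.06). In Mild IOP 7 of 9 did (median 0.10). The 11 bipolar markers summed to 67.2 to 87.3, 67.6 to 84.0 and 100.4 to 120.8, with *Vsx1* at 0 in all libraries. The most abundant were *Pcp2* (47.1 ± 10.5, 32.7 ± 9.54 and 65.9 ± 6.24) and *Cabp5* (9.51 ± 1.51, 12.8 ± 0.146 and 11.6 ± 3.79). Of 9 bipolar markers tested, 8 had a fold-change above 0 in Mild IOP (median 0.34) and 6 in Moderate IOP (median 0.35). Mild and Moderate IOP thus had means on opposite sides of Control for the summed RGC markers, the summed amacrine markers and *Gad1*. Both were below Control for the summed rod genes. The 9 Müller glia markers summed to 516 to 542, 516 to 588 and 484 to 509. Most of this was *Dkk3* (485 ± 16.1, 509 ± 41.2 and 423 ± 28.8), which other retinal neurons also express. *Glul* went the other way, at 30.0 ± 2.59, 23.3 ± 2.28 and 46.7 ± 10.2. Of 6 Müller markers tested, 4 had a fold-change above 0 against Control in each IOP group. The 7 microglia markers, led by *C1qa* and *Csf1r*, did not exceed 19.0 in any library, and the 7 markers of the retinal pigment epithelium, the layer that touches the rod outer segments, did not exceed 4.56, with *Best1* and *Rdh5* highest and *Rpe65* at 0 throughout.

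Lens transcripts were lower in the same groups as the rod transcripts. The 11 lens genes, led by the crystallins *Cryaa* and *Crygs*, summed to 355 to 428 scaled FPKM in Control, 9.86 to 11.0 in Mild IOP and 9.66 to 17.4 in Moderate IOP, and 9 of the 10 tested were called lower in each IOP group at a limma FDR below 0.1, against 0.391% of all genes in Mild and 0.889% in Moderate IOP. *Cryaa* averaged 112 ± 18.6 in the Control libraries and 0.684 ± 0.449 in Mild IOP, and was listed at 0 in every Moderate library. The lens sum in the IOP groups was 2.66% and 3.40% of its Control mean, where the rod sum was 65.0% and 70.2%. The part of lens or rod material carried over into the pools in the rod difference was not tested.

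**Figure D4:**
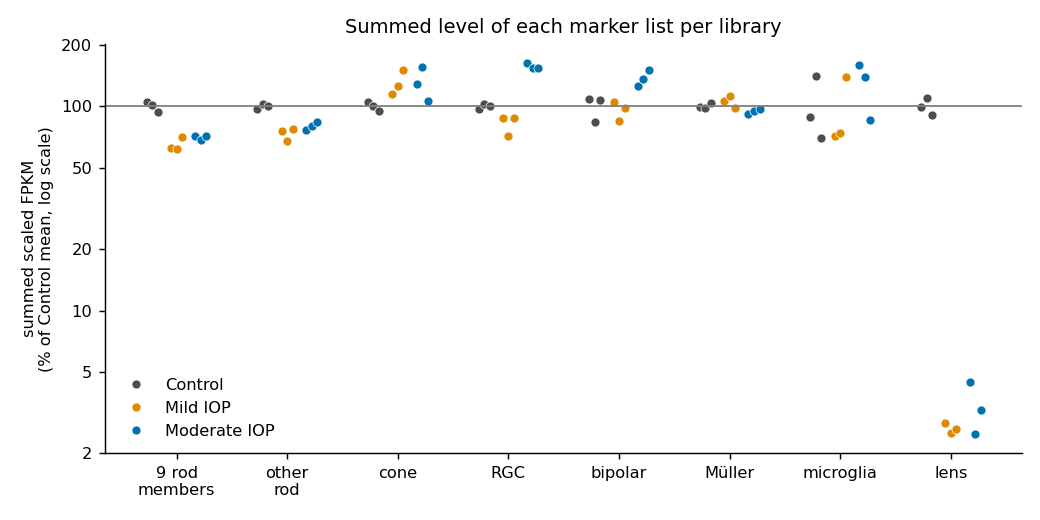
Summed scaled FPKM of the member, other rod, cone, RGC, bipolar, Müller, microglia and lens lists in each library (points). Values are percentages of the Control mean of each list, on a log axis. The amacrine and pigment epithelium lists are not drawn. The 9 members and the other rod genes sit below 100% in every IOP library and the cone genes above it. The RGC sum, mostly *Sncg*, lies below it in Mild IOP and above it in Moderate IOP. The lens list averages 2.66% in Mild and 3.40% in Moderate IOP.

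Genes with a profile most like the members were ranked by Pearson's r over the 9 libraries with the mean standardized level of the 9, among 8171 genes that averaged 5 or more scaled FPKM. The 9 libraries are 3 groups of technical replicates, so r mainly follows the group means and is given as a description. Of the 10 highest, 6 were lens crystallins, *Crygs* and *Cryba1* (r = 0.94), *Cryba2* (0.94), *Crygc* (0.93), *Crybb2* (0.92) and *Cryaa* (0.91). *Rab33a*, a small GTPase (r = 0.93), stood at 67.9 ± 7.81 scaled FPKM in Control, 40.6 ± 2.62 in Mild and 49.2 ± 4.83 in Moderate IOP. *Tceal5* (r = 0.91) stood at 73.7 ± 10.1, 44.5 ± 1.16 and 57.0 ± 2.29, and *Rgs16*, a regulator of G protein signalling (r = 0.91), at 13.5 ± 0.675, 8.33 ± 0.906 and 8.88 ± 1.66. These 3 genes had lower means in both IOP groups and were still well detected there, whereas the crystallins were at or near 0 in the IOP groups.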

How the data were processed

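RNA of each group was pooled, split into 3 and made into libraries with the SMART-seq v4 and Nextera XT kits. The authors aligned reads to mm10 (the methods name bowtie2, the submitters' processing notes TopHat2) and estimated expression with cufflinks. The deposited values are FPKM per locus with a confidence interval, made by the authors for each library. FPKM of loci sharing a symbol were summed (all 9 members had 1 locus), and genes whose estimate had failed were excluded. The number of fragments behind a value was derived as (2 × FPKM / (upper bound − FPKM)) squared, which is low for abundant genes. Median-of-ratios factors were used to scale the libraries, log2 was taken after adding a pseudocount of 1, and genes with a mean of at least 0.5 were fitted over all 9 libraries with limma 3.58.1 (R 4.3.3), with Benjamini-Hochberg adjustment over all 13043 genes tested in each comparison. The script was tested on simulated data. SE and P-values cover technical variation only. Tables were made in Python 3.11.15 with pandas 2.3.3 and numpy 2.4.6, and plots with matplotlib 3.10.9.

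Members and gene lists were chosen with earlier results of these data known. The text names the members, other rod genes called in a comparison, the 6 most abundant other rod genes, the cone counterparts, abundant genes of the other marker lists and genes most like the members. *Susd3*, *Crx*, *Nr2e3*, *Nrl* and genes listed at 0 or not tested were added afterwards, and some genes are not reported here. Alternatives were 2 other scalings (none, and TMM factors computed without weights, since FPKM are not counts), another pseudocount, 2 other filters, failed estimates kept, 1 locus per symbol, variance from 2 groups, a replicate block and leaving out each library.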

Additional observations from a re-analysis of the deposited data

Results flagged for a closer look

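*Prom1* is listed here because Moderate and Mild IOP differed by a direct test. Moderate IOP was lower than Mild IOP by a log2 fold-change of −0.97 (limma FDR 0.0150), whereas neither group passed against Control (limma FDR 0.28 and 0.33). The closest Moderate and Control libraries were 17.06 and 17.12 scaled FPKM, and 1 call in 40 genes is no more than the 3.12% of all genes called lower. Leaving out each library in turn kept this value between −1.11 and −0.79.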

How the results depend on the processing

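The median log2 fold-change of the 9 members kept its direction against Control in all 18 alternatives, between −0.76 and −0.55 in Mild IOP and between −0.58 and −0.41 in Moderate IOP. Between the IOP groups it lay between −0.03 and 0.17. Single members changed sign against Control in some alternatives, *Pdc* in 4 (Mild IOP) and 3 (Moderate IOP) and *Cnga1* in 2 (Moderate IOP), and between the IOP groups *Pdc* in 5, *Prph2* in 4, *Sag* in 2 and *Gnat1* and *Pde6g* in 1 each. The median of the other rod genes lay between −0.42 and −0.25 in Mild and between −0.47 and −0.19 in Moderate IOP, the last with a minimum mean of 5. Over all genes, the limma calls in Mild IOP ranged from 11 to 183 beside 52, in Moderate IOP from 61 to 287 beside 240 and between the IOP groups from 519 to 1527 beside 1324.

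Of the other rod genes, 1 was called in Mild IOP with TMM scaling and 1 with a minimum mean of 5, and leaving out single libraries gave 0 to 2 in Mild IOP (2 without Moderate library 3, 1 without Moderate library 1), 0 to 2 in Moderate IOP (2 without Moderate library 3, 1 without library 2) and 1 to 3 between the IOP groups (3 without Mild library 1). Between the IOP groups *Guca1b* changed sign with no scaling (−0.045). Leaving out single libraries took *Guca1b* from −0.093 to 0.20, *Rom1* from −0.033 to 0.28 and *Reep6* from −0.012 to 0.22. The causes were not tested. Same-numbered libraries did not deviate together (mean r = 0.02), so the numbers do not pair the samples. With a replicate block, 0, 0 and 1 of the other rod genes were called in the 3 comparisons, as without it, and 25 of all genes in Mild IOP in place of 52 and 135 in Moderate IOP in place of 240. Of the 9 members, *Rcvrn* and *Cnga1* had the fewest fragments behind a value, 43.4 and 45.8 at the lowest.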
